A study of Sus scrofa with 6 samples.

Results

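Circular RNAs (circRNAs) of intermediate genomic span whose 2 splice ends occur in no other circRNA were described in pig brain. A circRNA forms when the splicing machinery joins a downstream splice donor back to an upstream acceptor, closing the exons between them into a loop without a cap or a tail. Such loops resist exonucleases, build up in cells that do not divide, and are abundant in brain. One gene can give several loops, and these often share an acceptor or a donor, so a gene's circRNAs are commonly a nested family with 1 fixed end. Members here lie outside such families at both ends: their span was 1000 to 50000 bases, and both their start and their end were found in no other circRNA of the same chromosome and strand. By this rule 2949 of 11375 circRNAs were members, which is 25.9% of the table and 31.5% of the 9373 circRNAs in the same span range. Of the other mid-span circRNAs, 4485 shared 1 end with another circRNA and 1939 shared both.

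The study set 3 wild boars against 3 pigs of the Rongchang breed, a Chinese domestic pig, with 1 brain library per animal. The 6 animals were labelled female and 2 years old. Wild boar libraries carried the label brain, and the title of the series names the prefrontal cortex. Those of the domestic pigs were labelled cerebrum, and their labels mark them as re-analysed data. Breed, source and labelled tissue therefore split the libraries in the same way and cannot be told apart in any comparison between the groups. Abundance was deposited as TPM, a measure scaled to the length of the RNA. Whole back-splice reads, the reads that cross the closing junction, were recovered from these values. They numbered 38047, 59343 and 33644 in wild boar libraries 1 to 3, against 71183, 48822 and 73089 in domestic pig libraries 1 to 3. The limit set by a count of 0 was 3 reads, which is 0.0041% to 0.0089% of the reads of a library (counting error only). Where 3 values and then 3 more are given, they are those of wild boar 1 to 3 and then of domestic pig 1 to 3. All 13 neuron markers with a value were above 1 TPM in all 6 libraries, with summed TPM of 1011 to 2337 in wild boar and 1576 to 2809 in domestic pig. For 30 of 33 glial and vascular markers the same held, with sums of 3207 to 4934 and 3610 to 5448. HBB, a haemoglobin chain of red blood cells, reached 517 to 754 TPM in wild boar and 122 to 308 TPM in domestic pig. It was higher in wild boar (limma adjusted p = 0.0013), the 1 call among 32 tested genes of this list on deposited TPM. After rescaling the libraries by median ratios, 6 of the list were higher and 3 lower, where 19.5% of all protein-coding genes tested passed. Among them CLDN5, of endothelial tight junctions, had 11.9, 11.4 and 23.5, and 6.69, 7.55 and 9.94 TPM (limma adjusted p = 0.0062 after rescaling). ERMN, an oligodendrocyte protein of myelin, had 77.8, 63.6 and 121.9, and 160.5, 213 and 250.1 TPM (0.015 after rescaling). Of the 13 neuron markers 0 passed on deposited TPM, while after rescaling 2 were higher in wild boar and 0 lower. These were SLC17A7 and CAMK2A (limma adjusted p = 0.026 and 0.019), whose deposited TPM overlapped between the groups. The part of these cell types and of blood in the group comparisons was not tested.

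The members were spread over the 18 autosomes in the table, 1535 on the plus strand and 1414 on the minus strand. They made up from 24.1% of the mid-span circRNAs on chromosome 18 to 39.9% on chromosome 16. Their median span was 7794 bases, with quartiles of 3575 and 15392. Circles with 1 shared end spanned a median of 13633 bases and those with both ends shared 19381. The length of the circle itself, estimated from the deposited values as the shortest length that gives whole reads, had a median of 452 bases in the members, 531 with 1 shared end and 627 with both. For 32 members this length equalled the span, as in a circle of one unspliced stretch. These are properties of the deposited list and were not tested.

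Private ends were far from other ends. The median distance from a member's start to the nearest other start was 42970 bases, and from its end to the nearest other end 43275 bases. Members with another end within 10 bases numbered 2, both from ADPRM, a manganese-dependent phosphatase of ADP-ribose and CDP-alcohols, and their ends lay 4 bases apart. One of them had TPM of 0.270, 0.210 and 0.166 in wild boar libraries 1 to 3, against 0.105, 0.786 and 0.737 in domestic pig libraries 1 to 3. The other had 0.178, 0.138 and 0.055, and 0.208, 0.310 and 0.928. Both were thus listed in all 6 libraries, and the groups overlapped for each.

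Of the 2949 members, 2140 (72.6%) overlapped no other circRNA on their strand, 231 lay inside a larger one, 107 held a smaller one and 615 crossed one. A host gene could be named by position for 2937 members, which came from 2204 genes. The member was the only circRNA of its host for 1171 (39.7%). The median number of circRNAs in the table from a member's host was 2; a circRNA with a shared end has at least 1 other at its locus by the rule, so no such number is compared. Among hosts of members with a single candidate host, 1651 gave 1 member, 400 gave 2, and 2 hosts gave 7.

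Those 2 hosts were RYR2, the ryanodine receptor calcium channel of the endoplasmic reticulum, and ACACA, the acetyl-CoA carboxylase of fatty acid synthesis. RYR2 hosted 34 circRNAs, so its 7 members stood beside 27 others, whereas all 7 circRNAs of ACACA were members. The most abundant ACACA circle (chromosome 12, 38796303 to 38800438, minus strand) had TPM of 1.74, 0.874 and 1.12 in wild boar libraries 1 to 3, against 1.23, 1.54 and 2.04 in domestic pig libraries 1 to 3. The mean TPM of the gene's circles ran from 0.0481 to 1.43, so 1 locus gave loops that differed widely in level. Members of RYR2 ran from 0.0242 to 0.298 mean TPM, and 0 of 7 were in all 6 libraries. One RYR2 circle (53825928 to 53838038 on chromosome 14) had TPM of 0, 0.0869 and 0.0859 in wild boar, against 0.382, 0.244 and 0.199 in domestic pig. Another, 53676300 to 53680534, had 0.145, 0.180 and 0.267 in wild boar, against 0.0565, 0.0843 and 0 in domestic pig. These were the 2 of 7 RYR2 members whose groups did not overlap, in opposite directions, and neither passed the test (limma adjusted p = 0.22 and 0.32). The first rests on 3 reads in wild boar and 13 in domestic pig, and the second on 9 and 2. Next came BIRC6, an inhibitor of apoptosis with ubiquitin-conjugating activity, with 6 members of 20 circRNAs. Of the 9 hosts with 5 members, USP34, a deubiquitinase, had 37 circRNAs and DENND4A, an exchange factor for Rab GTPases, had 11. For DHX36, HERC2, DST, KIAA0753 and HECTD4, picked after their counts were seen, the 5 members were their only circRNAs. Members of BIRC6, USP34 and DENND4A were low in level, with a highest mean TPM of 0.137 in BIRC6, 0.0732 in USP34 and 0.0854 in DENND4A.

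Abundance was lower in circRNAs with private ends than in those with shared ends, in every library. The median TPM of members was 0.0437, 0.0521 and 0.0412 in wild boar libraries 1 to 3, against 0.0757, 0.0706 and 0.0962 in domestic pig libraries 1 to 3. With 1 shared end it was 0.0571, 0.0580 and 0.0591, and 0.0925, 0.0866 and 0.119. With both ends shared it was 0.0749, 0.0729 and 0.0866, and 0.127, 0.121 and 0.155. The 3 classes kept this order in all 6 libraries. On the log2 scale the median of members differed from that with 1 shared end by -0.32 ± 0.12 (SD, n = 6; exact sign-flip permutation p = 0.03125, the smallest that 6 libraries can give) and differed from that with both ends shared by -0.76 ± 0.19 (p = 0.03125, exact). Ratios of class means were larger, -0.52 ± 0.06 and -1.06 ± 0.06 (n = 6, exact p = 0.03125 each). Adjusted over the 6 comparisons of this family, each p remained 0.03125. An end counts as shared only where another listed circRNA has it, so the class itself depends on what was detected in these same libraries. The order in abundance and in detection may therefore come in part from the rule. This part was not tested, and the p-values do not account for it. A factor that scales a whole library cancels in these ratios. Among circRNAs above 0 in all 6 libraries the differences were -0.05 and -0.18 for medians and -0.29 and -0.50 for means, against 1 and both ends shared (exact permutation p = 0.03125 each). Counted in recovered reads, which are not divided by length, the median against 1 shared end differed by -0.36 (exact permutation p = 0.25).

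**Figure D1:**
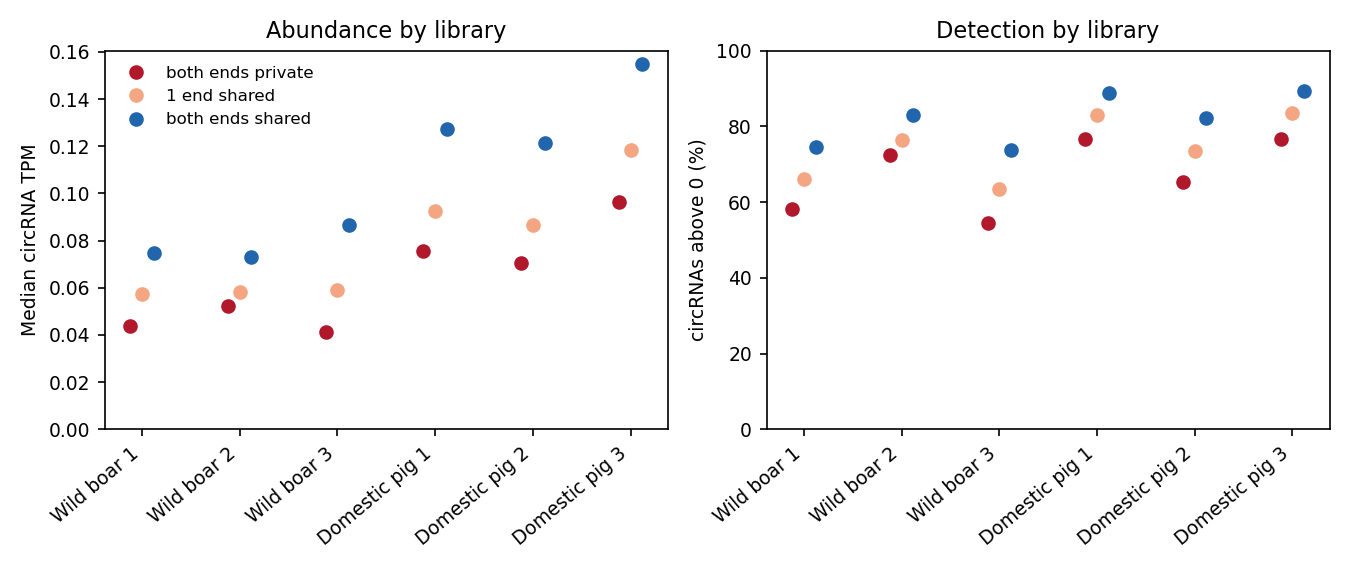
Median TPM (left) and percent of circRNAs above 0 (right) in each of the 6 libraries for mid-span circRNAs with both ends private, 1 end shared or both ends shared. One point is 1 class in 1 library; the class with private ends is lowest in both panels in all 6 libraries.

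Detection followed the same order. Members above 0 numbered 1720 (58.3%), 2134 (72.4%) and 1608 (54.5%) in wild boar libraries 1 to 3, against 2263 (76.7%), 1923 (65.2%) and 2262 (76.7%) in domestic pig libraries 1 to 3. The share detected was lower than with 1 shared end in all 6 libraries, with differences of -8.91 to -3.96 percentage points (mean difference -6.99 ± 1.76, SD, n = 6; exact p = 0.03125), and differed from that with both ends shared by -14.6 ± 3.34 points (exact p = 0.03125, n = 6). With all libraries thinned to 33644 reads, the depth of the shallowest, the differences were -7.52 and -16.6 points. This thinning, and the restrictions to span ranges, hosts and read numbers that follow, were chosen after seeing the data.

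Members were also held by fewer libraries. Found in all 6 were 753 members (25.5%), against 35.5% with 1 shared end and 50.2% with both. Found in 1 library only were 250 members (8.48%), against 4.04% and 2.22%. Recovered reads were set to reach at least 3 in 1 library, since the smallest whole solution peaked at 3 in 3444 circRNAs, at 2 in 117 and at 1 in 199. With this floor 1184 members (40.1%) had exactly 3 in their deepest library, of which 1100 had 3 in the smallest solution and 84 were raised to it. The median member had 9 reads over the 6 libraries, against 12 and 17. Among the 753 members in all 6 libraries, the median SD of log2 TPM within a group was 0.73, and 0.45 in the 60 members at 1 TPM or more. Spearman correlations between libraries over the members were 0.429 to 0.494 within a group and 0.381 to 0.450 between groups. They are given as a description, since the members share the libraries and their depth.

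**Figure D2:**
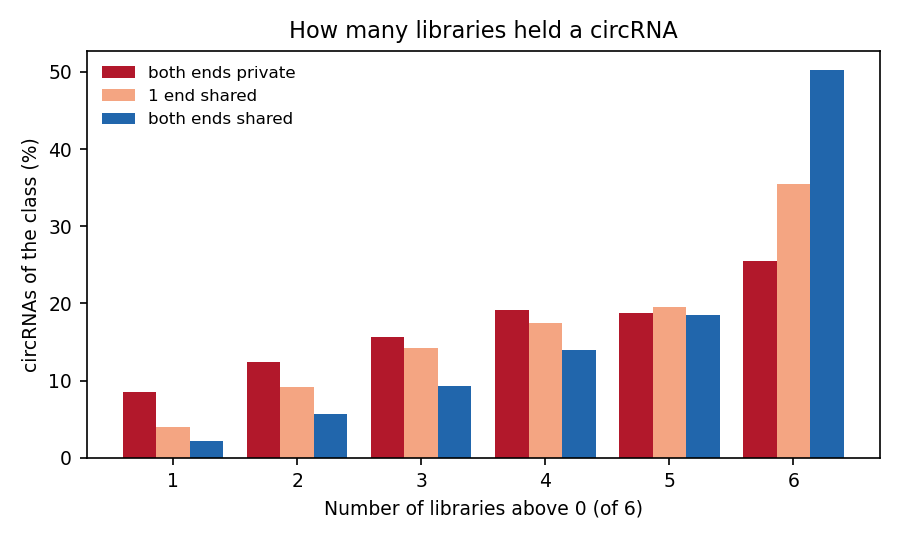
Percent of circRNAs in each of 3 end classes by the number of libraries, 1 to 6, in which the circRNA was above 0. Bars are shares of each class; 25.5% of circRNAs with both ends private were in all 6 libraries, against 35.5% and 50.2% of those with 1 or both ends shared.

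The order of the classes also held among circRNAs of like span. Between 1000 and 5000 bases the median of the mean TPM was 0.0912 for 1027 members, 0.128 with 1 shared end and 0.168 with both. Between 20000 and 50000 bases it was 0.0537 for 499 members, 0.0612 and 0.0911. In each of the 4 span ranges all 6 comparisons of the family were negative in 6 of 6 libraries (exact p = 0.03125 each). The classes in these and the following restrictions were still those of the whole table, set by what was detected in these same libraries. Their p-values therefore do not account for the part of the rule either. Mean differences of the median against 1 shared end were -0.53, -0.40, -0.52 and -0.59 on the log2 scale from the shortest to the longest range. Within hosts that gave 3 to 5 circRNAs, 776 members had a median mean TPM of 0.0678, against 0.0888 for 1702 with 1 shared end and 0.112 for 383 with both. There the medians differed by -0.52 and -0.95 (6 of 6 libraries, exact p = 0.03125 each). Among circRNAs with more than 3 reads in a library the median against 1 shared end differed by -0.17, in 5 of 6 libraries (exact p = 0.0625), while against both ends shared it differed by -0.46 in 6 of 6 (exact p = 0.03125). Host messenger RNA had a median mean TPM of 10.02 for members, 12.9 with 1 shared end and 14.3 with both, and its part in the order was not tested.

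**Figure D3:**
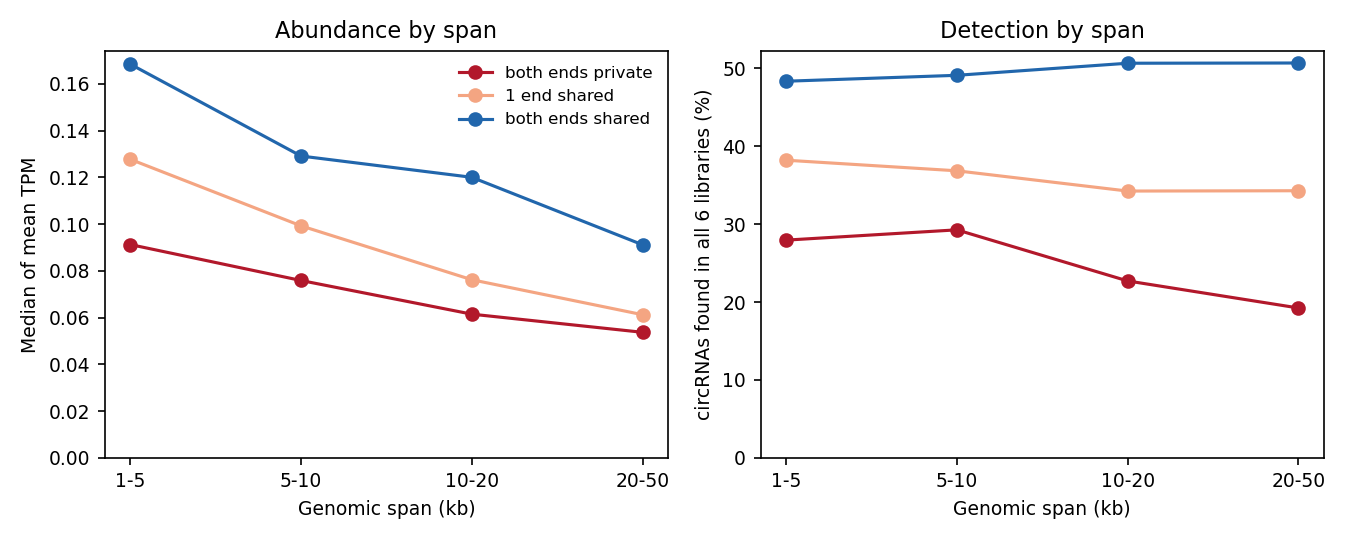
Median over circRNAs of the mean TPM (left) and percent of circRNAs found in all 6 libraries (right) in 4 ranges of genomic span, in kilobases, for the 3 end classes. In each range circRNAs with both ends private are lowest, at 0.0912 TPM for the shortest and 0.0537 TPM for the longest spans.

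Within the members, longer circles had lower levels, given here without a test. The median of the mean TPM was 0.119 for 1143 members with circles over 200 and up to 400 bases, 0.0639 for 1236 over 400 and up to 800, 0.0307 for 445 over 800 and up to 1600 and 0.0164 for 89 longer ones. TPM divides reads by length, and the median reads were 10, 9, 8 and 9 in the same order. Members that were the only circRNA of their host had a median of 0.0781 TPM, and the others 0.0706. The top 10 members held 9.30% and the top 100 held 32.2% of the class's summed TPM, against 8.996% and 32.0% with 1 shared end and 16.65% and 47.9% with both. Only 60 members (2.03%) had a mean above 1 TPM, against 3.75% and 6.14% in the classes with shared ends. At the span limits, the members just inside 1000 bases came from EIF2B5, HERC2 and CTSV with spans of 1001, 1002 and 1004, and the circRNAs just outside from ANKHD1, SYMPK and UNC13B with 994, 995 and 996. Just inside 50000 bases were COL21A1, CENPC and TRIP4 with 49763, 49869 and 49933, and just outside KIAA2026, CHD2 and OSBPL1A with 50048, 50087 and 50190.

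The most abundant member was a circle of BMPR2, the type II receptor of bone morphogenetic proteins (chromosome 15, 106074746 to 106076503, plus strand, estimated circle of 342 bases), with 5.09 TPM in its lowest and 13.6 TPM in its highest library. SLTM, a nuclear RNA-binding regulator of transcription, gave the second (chromosome 1, 113097707 to 113102025), with TPM of 7.52, 5.41 and 8.24 in wild boar libraries 1 to 3, against 9.23, 5.86 and 6.37 in domestic pig libraries 1 to 3. The groups overlapped for SLTM. MICU2, a regulatory subunit of the mitochondrial calcium uniporter, gave a circle with 5.83, 2.71 and 3.19 TPM in wild boar, against 5.27, 5.81 and 7.10 in domestic pig, overlapping through wild boar 1. Wild boar 1 was second to domestic pig 3 alone.

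RNF115, an E3 ubiquitin ligase, had TPM of 1.90, 2.80 and 2.72 in wild boar, against 5.37, 6.17 and 4.96 in domestic pig, without overlap. GUCY1B3, a subunit of the nitric oxide receptor guanylate cyclase, had 2.68, 2.52 and 3.49, and 2.72, 3.31 and 4.55. TNIK, a kinase that acts on the actin cytoskeleton and in Wnt signalling, had 2.17, 2.46 and 1.56, and 2.10, 4.78 and 4.82. Groups overlapped for GUCY1B3 and TNIK, and domestic pig 3 was highest for both. SNX13, a sorting nexin of the endosomal pathway, had 1.16, 0.973 and 2.07, and 4.08, 3.85 and 4.52 TPM, without overlap. The tenth member by level had no host in the annotation (ssc_circ_7230, chromosome 3, 28903672 to 28904794, minus strand) and had 1.19, 2.49 and 2.02, and 2.56, 2.53 and 4.55 TPM. MICU2, RNF115 and SNX13 each had this circRNA alone in the table.

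Levels summed over the members were lower in every wild boar library than in any domestic pig library. The sum was 366, 399 and 385 TPM in wild boar libraries 1 to 3, against 535, 529 and 622 TPM in domestic pig libraries 1 to 3 (383 ± 16.9 against 562 ± 52.4, SD, n = 3 each; exact permutation p = 0.1, the smallest that 3 against 3 can give, and 0.25 adjusted over 5 totals). Less RNA per cell and fewer cells of a type cannot be told apart in whole tissue. The members' share of all circRNA TPM was 18.3%, 19.7% and 18.1% in wild boar, against 18.6%, 18.2% and 18.5% in domestic pig, groups that overlapped (exact permutation p = 0.9, n = 3 each). Numbers detected, 1821 ± 277 and 2149 ± 196, overlapped between the groups (exact p = 0.2, n = 3 each). At equal depth they were 1683 ± 99.7 and 1758 ± 59.3 (exact p = 0.4, n = 3 each). For the 6 differences between members and circRNAs with shared ends, a test of the difference between the groups gave no call (exact permutation p = 0.4 to 0.9, n = 3 each, adjusted p = 0.9).

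Single circRNAs were compared with limma on log2(TPM + 0.045), where 0.045 is about the value of 1 read, for circRNAs above 0 in at least 3 libraries. Of the members 2332 were tested and 617 were too rarely detected. Lower in wild boar at an adjusted p under 0.05 were 4 members, against 13 of 9709 circRNAs in all (0.134%), and higher were 0 members and 0 circRNAs (0%). At an unadjusted p under 0.05 there were 346 members, 296 lower and 50 higher, or 14.8% against 14.5% of all circRNAs tested. The median log2 fold change was -0.41 in members and -0.45 in all. Rescaling the libraries by median ratios moved it to -0.08 and -0.10. After rescaling 0 members passed, against 2 circRNAs in all (0.0206%), and the unadjusted calls split into 131 lower and 113 higher members, 10.5% against 9.07% of all circRNAs (497 lower and 384 higher). With limma voom on recovered reads they split into 66 lower and 152 higher, 9.35% against 9.52% of all circRNAs (358 lower and 566 higher). The balance of lower and higher calls thus moved with the scale in the members and in the whole table. Among circRNAs above 0 in all 6 libraries, limma on deposited TPM called 22 of 753 members (2.92%), all lower, against 3.87% of all such circRNAs (145 lower and 9 higher).

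The frequency of groups without overlap was near that in the table: 348 tested members (14.9%) had all wild boar values below all domestic pig values, against 18.2% of circRNAs tested, and 72 (3.09%) had them above, against 2.46%. No statement about the members follows from shares this close to those of all circRNAs.

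**Figure D4:**
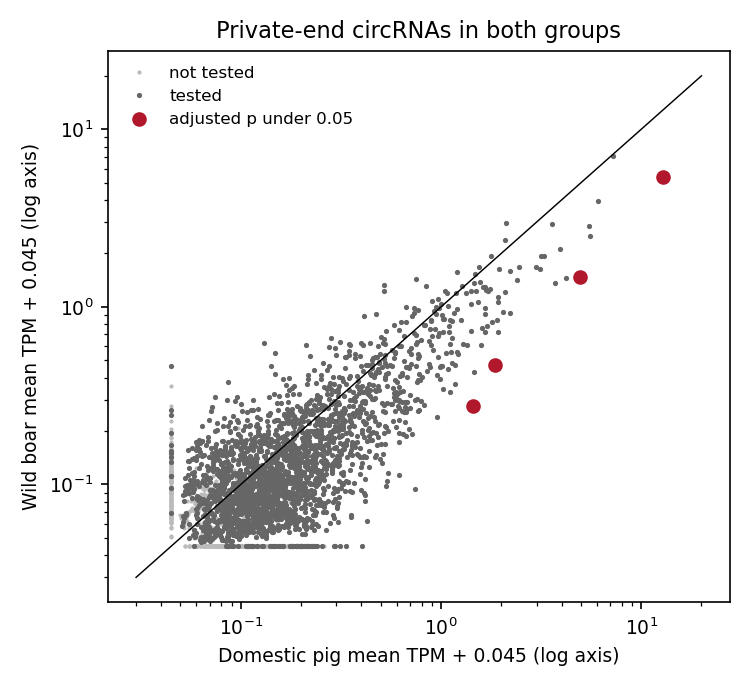
Mean TPM + 0.045 in 3 wild boar libraries against that in 3 domestic pig libraries for 2949 mid-span circRNAs with private ends, on log axes, with the line of equality. Each point is 1 circRNA; the 4 with an adjusted p under 0.05 lie below the line, and points along the edges are circRNAs listed at 0 in all 3 libraries of a group.

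The 4 circles that fell came from BMPR2, PLA2R1, LDB2 and CDS1. The BMPR2 circle had TPM of 5.09, 5.64 and 5.35 in wild boar libraries 1 to 3, against 12.1, 12.5 and 13.6 in domestic pig libraries 1 to 3. Within each group its 3 libraries lay close together, and the groups were far apart (log2 fold change -1.24, SE 0.21, limma adjusted p = 0.0475). PLA2R1, the M-type receptor of secreted phospholipase A2, gave a circle on chromosome 15 (66918248 to 66936983, minus strand) with 1.60, 1.18 and 1.49, and 3.34, 4.73 and 6.68 TPM. Its domestic pig libraries were farther apart from each other than its wild boar libraries (-1.71, SE 0.31, limma adjusted p = 0.0475). These values rest on 109 and 356 back-splice reads in the 2 groups, and those of BMPR2 on 255 and 559.

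LDB2, a cofactor that binds LIM-domain transcription factors, gave a circle on chromosome 8 (11712865 to 11724812, minus strand), the only circRNA of this host. It had TPM of 0.589, 0.365 and 0.321 in wild boar, against 2.09, 1.52 and 1.86 in domestic pig (-2.02, SE 0.38, limma adjusted p = 0.0475). CDS1, a CDP-diacylglycerol synthase of phospholipid synthesis, gave one on the same chromosome and strand (134005514 to 134021755) with 0.269, 0.300 and 0.132, and 1.34, 1.94 and 0.917 TPM. The fold change of the CDS1 circle was the largest of the 4 (-2.37, SE 0.45, limma adjusted p = 0.0475), on 16 and 81 reads.

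All 4 stood just under the threshold. After rescaling their log2 fold changes were -0.64, -1.12, -1.45 and -1.82 in the order BMPR2, PLA2R1, LDB2 and CDS1, with limma adjusted p of 0.33, 0.29, 0.29 and 0.29, so the direction was kept and the call was lost. On recovered reads with limma voom, PLA2R1 passed (-1.11, SE 0.27, adjusted p = 0.0215), and the other 3 did not, where 0.299% of all circRNAs passed. Leaving out wild boar 2 or wild boar 3 left 0 members below the threshold, leaving out wild boar 1 left LDB2 (limma adjusted p = 0.0454), and leaving out domestic pig 1 left PLA2R1 (0.0427). BMPR2, PLA2R1 and LDB2 passed without domestic pig 2 but CDS1 did not (limma adjusted p = 0.0792). BMPR2 and CDS1 passed without domestic pig 3, but PLA2R1 (0.0733) and LDB2 (0.0571) did not.

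**Figure D5:**
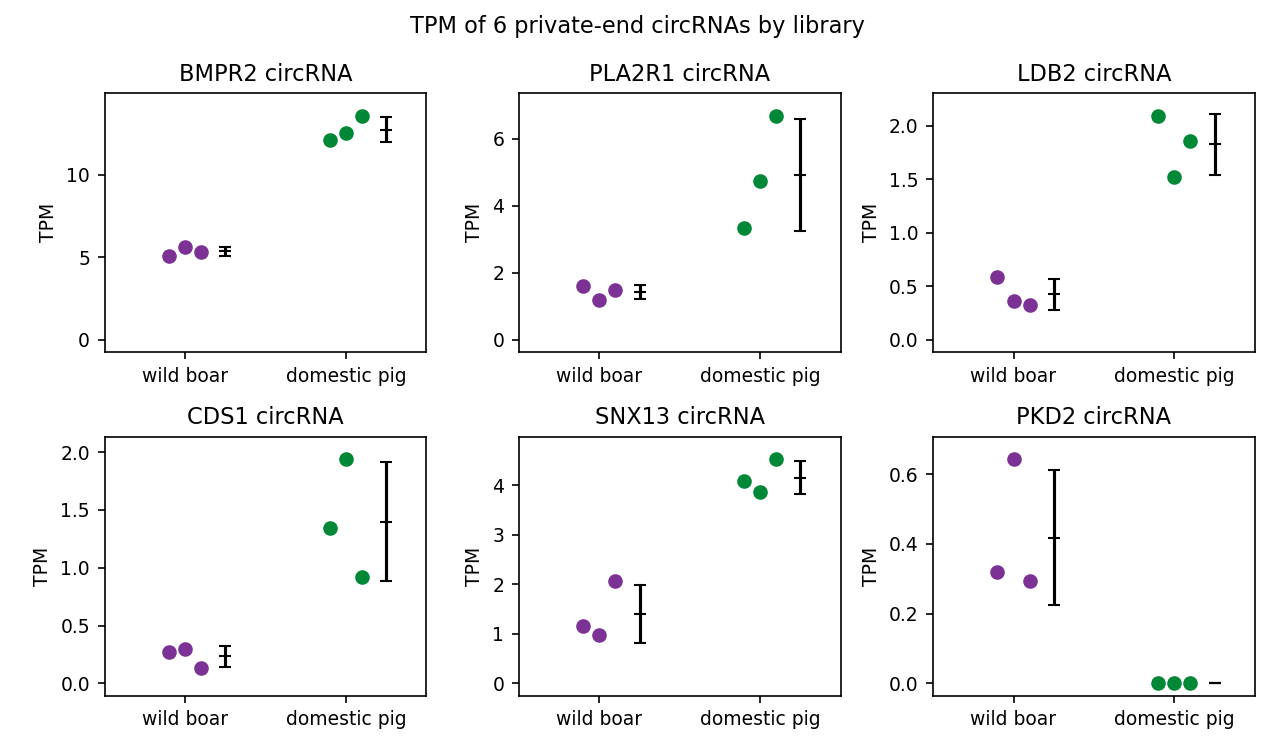
TPM of 6 circRNAs with private ends in 3 wild boar and 3 domestic pig libraries. Points are libraries, bars are the mean and SD of a group; the BMPR2, PLA2R1, LDB2, CDS1 and SNX13 circles are lower in every wild boar library, and the PKD2 circle is listed at 0 in the domestic pig libraries.

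Messenger RNA of the same genes was looked up beside the circles. BMPR2 mRNA had TPM of 20.1, 14.0 and 26.5 in wild boar, against 20.9, 45.4 and 29.8 in domestic pig, overlapping between the groups (log2 fold change of TPM + 1 of -0.62, SE 0.42, limma adjusted p = 0.41; -0.12 after rescaling, adjusted p = 0.57). PLA2R1 mRNA had 10.6, 6.79 and 15.1, and 16.0, 34.8 and 32.0 TPM, with every wild boar library below (-1.26, SE 0.42, adjusted p = 0.093). After rescaling it passed the limma test (-0.78, SE 0.13, adjusted p = 0.0080), as did SNX13 mRNA (-0.55, SE 0.11, adjusted p = 0.016). LDB2 and CDS1 mRNA had log2 fold changes of -0.13 and -0.39 after rescaling (adjusted p = 0.49 and 0.083). The difference between a circle's change and that of its mRNA was not tested. Of all 11752 protein-coding genes tested, 188 passed on deposited TPM (1.6%) and 2295 after rescaling (19.5%).

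Of the members' hosts, 1586 were tested as mRNA, and on deposited TPM 20 fell (1.26%) and 0 rose, against 1.6% of all genes. After rescaling 324 fell and 33 rose, 22.5% in all against 19.5% of all genes. The median log2 fold change after rescaling was -0.15 in these hosts and 0.01 in all genes tested. Hosts of circRNAs with shared ends were not counted apart, so this direction is not shown to be particular to hosts of members. Across 2580 members, the Spearman correlation of circle level with host level was 0.085. Across 2003 members it was 0.139 for the log2 fold changes. These are descriptions over circRNAs that share 6 libraries.

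Higher circles in wild boar missed the threshold. The nearest was a circle of PKD2, the polycystin-2 cation channel (chromosome 8, 131006241 to 131011078, minus strand), with TPM of 0.319, 0.643 and 0.293 in wild boar and 0 in the 3 domestic pig libraries. This was 20 reads against 0, pooled over the libraries of each group (limma adjusted p = 0.0536). With 3 reads allowed over the domestic pig group, the share of back-splice reads was 9.82-fold higher in wild boar. The 20 reads are taken as exact there and the spread between animals is left out, so this is not a lower bound. Over the other settings run, its adjusted p ranged from 0.0011 with limma voom on recovered reads to 0.154 with limma without trend. The circle entered the test through the 3 wild boar libraries alone, where it is high. These p-values and the ratio are therefore given as values and not as support. PKD2 mRNA had 16.9, 8.82 and 18.9 TPM in wild boar, against 11.8, 22.0 and 20.8 TPM in domestic pig, so the host was transcribed in all 6.

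MYH10, a nonmuscle myosin heavy chain, had a circle with 0.330, 0.137 and 0.135 TPM in wild boar, against 0 in domestic pig, on 6 reads (adjusted p = 0.13, limma). CAMTA1, a calmodulin-binding transcription activator, had one with 0.263, 0.245 and 0.484, and 0, 0 and 0.125 TPM, on 8 reads against 1 (adjusted p = 0.14, limma). Circles of WDR27, a WD-repeat protein, and RAP1GAP, a GTPase activator for Rap1, are named because they were the other 2 that passed upward on recovered reads, and so were chosen after their values were seen. WDR27 had 0.746, 1.49 and 1.32 TPM in wild boar, against 0.194, 0.675 and 0.550 TPM in domestic pig, without overlap, on 51 and 17 reads. RAP1GAP had 0.778, 0.826 and 0.136, and 0, 0.258 and 0 TPM, with overlap.

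Presence in all 3 libraries of a group and none of the other was rare. In all 3 domestic pigs and 0 wild boars were 63 members (2.14%), against 1.98% of all circRNAs, and in all 3 wild boars and 0 domestic pigs 13 members (0.441%), against 0.299%. Thinned to equal depth, 40.4 members would be expected in domestic pigs alone and 36.0 in wild boars alone, and 148.1 and 108.5 of all circRNAs. Such circles were tested, where they were, through 1 group alone. GOSR1, a SNARE of the Golgi, led the domestic pig side with TPM of 0.267, 0.159 and 0.650 on 17 reads. With 3 reads allowed over the wild boar group, its pooled share of reads was 3.85-fold higher in domestic pig. The 17 reads are taken as exact there, so this is not a lower bound. RSU1, a Ras suppressor of focal adhesions, followed with 0.177, 0.462 and 0.108 on 13 reads. Circles of MBOAT1, a lysophospholipid acyltransferase, STRBP, an RNA-binding protein of the spermatid, and ZNF451, a SUMO ligase, each had 11 reads. None of these 5 passed the limma test (adjusted p = 0.10 to 0.13).

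On the wild boar side, after PKD2, stood TTC37, a subunit of the SKI complex of RNA decay, with 0.276, 0.0342 and 0.338 TPM on 11 reads. SMG1, the kinase of nonsense-mediated decay, had 0.0694, 0.0860 and 0.170 on 10 reads. G3BP1, a stress granule protein, had 0.202, 0.0836 and 0.0827 on 6 reads, like MYH10. Their limma adjusted p was 0.16 each, and the fitted fold change of such circles depends on the pseudocount.

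Host genes were also grouped by function. Synaptic genes hosted 20 members from 14 of 33 presynaptic genes and 17 from 15 of 38 postsynaptic genes. RIMS1, an active zone scaffold, had 0.685, 0.389 and 0.280, and 0.578, 0.0663 and 1.19 TPM, a spread of the domestic pigs that enclosed the wild boars. SV2B, a synaptic vesicle glycoprotein, had 0.446, 0.506 and 0.638, and 0.463, 0.259 and 0.845 TPM, again enclosed.

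The leading postsynaptic circles had at most 0.519 mean TPM. SHANK2, a scaffold of the postsynaptic density, had 0.263, 0.434 and 0.537 TPM in wild boar, against 0.546, 0.917 and 0.415 TPM in domestic pig. GRIN2B, an NMDA receptor subunit, had 0.337, 0.383 and 0.310, and 0.329, 0.458 and 0.853 TPM. DLG2, the scaffold PSD-93, had 0, 0.361 and 0.714, and 0.680, 0.338 and 0.414 TPM. Groups overlapped for all 3. Of the tested members, 0 of 16 presynaptic and 0 of 14 postsynaptic ones passed in either direction. The medians of their log2 fold changes were -0.27 and -0.18, beside -0.45 for all circRNAs tested.

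Voltage-gated ion channel genes hosted 17 members, and 0 of 14 tested passed. Their median log2 fold change was -0.81, beside -0.45 for all circRNAs tested. KCNH7, an ether-a-go-go related potassium channel, had 0.309, 0.335 and 0.426 TPM in wild boar, against 0.512, 0.719 and 0.659 TPM in domestic pig, without overlap (limma adjusted p = 0.44). CACNA1E, an R-type calcium channel, had 0.397, 0.351 and 0, and 0.883, 0.461 and 0.376 TPM. KCNMA1, the BK potassium channel, had 0.641, 0.0662 and 0.131, and 0, 0 and 0.304 TPM. Wild boar 3 was at 0 for CACNA1E and the first 2 domestic pigs for KCNMA1, and the groups overlapped for both.

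Ubiquitin ligase and deubiquitinase genes gave the most members of any list, 61 from 22 of 36 genes, at a low median of 0.0420 mean TPM. These were 61 of the list's 222 mid-span circRNAs (27.5%), beside 31.5% of all mid-span circRNAs. The leading circle came from MYCBP2, a very large neuronal ubiquitin ligase, with 2.07, 1.70 and 1.12 TPM in wild boar, against 1.42, 1.83 and 1.26 TPM in domestic pig. HERC1 and HERC2 encode giant HECT-domain ligases. The HERC1 circle had 0.357, 0.498 and 0.437, and 0.486, 0.311 and 0.423 TPM. The HERC2 circle had 0.392, 0.389 and 0.193, and 0.306, 0.365 and 0.0744 TPM. All 3 overlapped between the groups. Of 42 tested, 0 passed, with a median log2 fold change of -0.49.

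Chromatin regulator genes had the smallest part of their mid-span circRNAs in private circles among lists with over 20 members, 33 of 199 (16.6%), and cytoskeletal motor and scaffold genes the largest, 47 of 144 (32.6%), beside 31.5% of all mid-span circRNAs. CHD8, a chromatin remodeller, had 2.49, 2.44 and 3.84 TPM in wild boar, against 1.88, 2.52 and 1.83 TPM in domestic pig. CREBBP, a histone acetyltransferase, had 0.350, 0.326 and 0.752, and 0.341, 0.509 and 0.415 TPM. CHD7, another remodeller, had 0.343, 0.340 and 0.336, and 0.427, 0.0797 and 0.325 TPM. Wild boar libraries of CHD7 were nearly equal, while domestic pig 2 stood low, and the groups overlapped for all 3. The median log2 fold change was -0.23 over 30 tested chromatin members, of which 0 passed.

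MYO9B, an unconventional myosin, had 0.754, 1.58 and 1.27 TPM in wild boar, against 1.69, 1.97 and 1.25 TPM in domestic pig. KIF13A, a kinesin motor, was above in every wild boar, with 0.770, 0.371 and 0.629 against 0.267, 0.298 and 0.243 TPM (log2 fold change 0.96, SE 0.46, limma adjusted p = 0.35). DYNC1LI1, a light intermediate chain of dynein, had 0.480, 0.328 and 0.353, and 0.225, 0.558 and 0.501 TPM. Of 35 tested cytoskeletal members 0 passed, with a median of -0.45 on the log2 scale, the same as over all circRNAs.

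Protein kinase genes hosted 26 members, TNIK leading. CDK19, a kinase of the Mediator complex, had 0.544, 0.723 and 0.763 TPM in wild boar, against 0.788, 0.452 and 1.70 TPM in domestic pig. WNK1, a kinase that controls ion transporters, had 0.744, 0.725 and 0.652, and 0.829, 0.618 and 1.21 TPM. Axon and dendrite guidance genes hosted 31. EPHA4, an ephrin receptor, had 1.63, 1.59 and 0.922, and 2.83, 2.70 and 1.54 TPM, with domestic pig 3 below the first 2 wild boars. EPHA7, of the same family, had 0.202, 0.125 and 0.558, and 0.355, 0.353 and 0.623 TPM. DCC, the netrin receptor, had 0.361, 0.279 and 0.221, and 0.211, 0.314 and 0.427 TPM. Among 22 tested kinase members and 22 tested guidance members, 0 passed, with medians of -0.38 and -0.51.

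Cell type markers hosted few mid-span circRNAs of any class, 4 from 34 glial and vascular genes and 9 from 14 neuron genes. Of the glial and vascular genes, 1 hosted a member: ASPA, the aspartoacylase of oligodendrocytes, with 0, 0.0226 and 0.0447 TPM in wild boar, against 0.227, 0.0847 and 0.242 TPM in domestic pig (limma adjusted p = 0.24, on 2 and 17 reads). Of the neuron marker genes, MAP2, a dendritic microtubule protein, hosted 1, with 0, 0.0280 and 0.0554, and 0.0352, 0.0263 and 0.150 TPM. Among 26 genes for making or clearing circRNAs, 4 hosted 1 member each. Besides G3BP1, XPO4, a nuclear transport receptor, had 0, 0 and 0.158, and 0.20, 0.299 and 0.183 TPM, and MBNL1, a splicing factor, had 0.0669, 0.0829 and 0, and 0.261, 0 and 0.0634 TPM. The other host was DHX9, an RNA helicase. Of these lists' 6 tested members 0 passed.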

How the data were processed

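The authors deposited TPM of protein-coding genes and TPM of circRNAs for 6 libraries of rRNA-depleted total RNA, per the labels, and 0 further columns of per-sample values were left unused. STAR 2.6.0c and BWA 0.7.17 appear in the submitters' processing notes, without a role. The sources used here do not give the circRNA caller, the annotation or the genome build. Positions follow the table, counted from 1 by raising each start. Hosts were named by position with Sscrofa11.1 RefSeq gene names: 99.3% of circRNAs fell within a gene (47.1% when moved by 1000000 bases), and 18 members had several candidate hosts.

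Each circRNA TPM was a whole number of reads times 1 factor per library over a length, within a relative tolerance of 1e-06 for all 11375 circRNAs. The smallest whole solution was used, raised to 3 reads in 1 library for 125 members. A common multiplier cannot be seen, so reads are otherwise lower bounds and lengths shortest estimates.

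circRNAs above 0 in at least 3 libraries were tested on log2(TPM + 0.045) and genes at 1 TPM or more in at least 3 libraries on log2(TPM + 1), with limma 3.58.1 with trend in R 4.3.3, two-sided, Benjamini-Hochberg over the whole table, threshold 0.05. Fold changes of low values are understated. For values per library, permutation tests were exact and two-sided (scipy 1.17.1). P-values measure the spread between these libraries only. The tests were checked on simulated data.

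Members and gene lists were chosen with earlier results of these data known. The named circRNAs are the 10 of highest mean TPM, up to 8 called per direction (else the 3 of lowest p without overlap), up to 5 found in 1 group only per direction by reads, up to 3 per list by mean TPM, those of the 5 hosts with most members, and the 3 nearest each side of both span limits. Some circRNAs that this rule takes are not reported here. Host genes with a called member in each direction were sought, and 0 were found. Alternatives were the pseudocount, the filter, rescaling, reads, the trend, the replicate block, each library left out, and the span, tolerance and strand of the rule.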

Additional observations from a re-analysis of the deposited data

How the results depend on the processing

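The 4 members lower in wild boar became 0 at a pseudocount of 0.01, 0 after rescaling, 0 with limma without trend, 1 without a filter, 1 on recovered reads with limma voom and 22 of 753 among members above 0 in all 6 libraries, where fewer circRNAs are tested and 3.87% of all pass. Lower over all circRNAs were 0, 1, 1, 6 and 4 in the same order before the last of these settings, of 9709 tested or 11375 without a filter. Leaving out 1 library gave 0 to 6 lower and 0 to 2 higher members. Over all circRNAs it gave 1 to 21 lower and 0 to 4 higher, of 8671 to 9243 tested. Members higher were 1 at a pseudocount of 0.2 and 3 on recovered reads, against 3 and 25 of all 9709 circRNAs. With 1 library left out, a circRNA found in 1 group only could drop below 3 libraries and go untested. Same-numbered libraries did not deviate together (correlations -0.0008, 0.0225 and 0.00995), and the replicate block gave 5 lower and 0 higher, against 21 and 0 of all 9709 circRNAs. The SLTM log2 fold change turned to 0.58 after rescaling, 0.57 on reads, and, with 1 library left out, ran from -0.14 to 0.18, above 0 without wild boar 2 (0.17) or domestic pig 1 (0.18), and that of GUCY1B3 to 0.33 and 0.36 after rescaling and on reads. The difference in the share of circRNA TPM turned to -0.19 without wild boar 2. Against 1 shared end, leaving out 1 library gave -0.36 to -0.29 for medians, -0.54 to -0.51 for means and -7.60 to -6.61 points for detection. Against both ends shared it gave -0.81 to -0.70, -1.08 to -1.05 and -15.4 to -13.7 points. Each had exact p = 0.0625, the smallest for 5 libraries. By recovered reads the median against 1 shared end was -0.36 (exact p = 0.25), and with more than 3 reads -0.17. The class differences between the groups had no call, and with 1 library left out all but the means against both ends shared (0.015 to 0.093) changed sign. Against 1 shared end they ran from -0.16 to 0.024 for medians, -0.025 to 0.063 for means and -1.20 to 1.28 points for detection (-0.32 without domestic pig 2). Against both they ran from -0.18 to 0.11 for medians and -3.78 to 0.55 points for detection. The extremes came without wild boar 2 or wild boar 3. Among 51 tested host genes of the circRNAs named by rule, 0 passed on deposited TPM and 14 after rescaling. Of all protein-coding genes tested, 1.6% and 19.5% passed. Some of these hosts were named because of the change of their circle, so the count is a description. Where no construction is named, the cause was not tested. Reads of 9 per median member limit what single circRNAs can show.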
